A study of Rattus norvegicus with 4 samples.

Results

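The genes described here are a module of 41 listed symbols of the cell division cycle, of which 40 were found by exact match among the 25399 genes of the deposited table. They fall into 24 genes of mitosis and 16 genes of DNA replication. E2f1, the remaining symbol and a transcription factor of the replication genes, is not analysed here. The rule that takes them uses no measured value, although the list was drawn up with earlier results of these data known.

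The series holds single-cell RNA sequencing (10x Genomics 3′ v3 chemistry) of tissue from Sprague Dawley rats, with 1 library in each of 4 groups: Adult-DRG (dorsal root ganglion, the cluster of sensory nerve cell bodies beside the spinal cord, at 8 weeks), P1-DRG (the same tissue at 1 day), Adult-SN (sciatic nerve at 8 weeks) and P1-SN (sciatic nerve at 1 day). The labels give no treatment and no altered gene, and the sex was not determined. They describe a culture of primary Schwann cells, the glia of peripheral nerve, in medium with serum; whether the sequenced cells went through it is not stated. The series title asks how Schwann cells of ganglion and nerve differ.

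The values were UMI counts (unique molecular identifiers, 1 for each captured transcript) in 1 matrix, in which a number from 1 to 4 at the end of each barcode marks the library. Which of the 4 groups each number stands for is not given in the sources used here. The libraries are therefore named by their number alone, tissues and ages were not compared, and no p-value is given. After the filters 9828, 8426, 6473 and 8448 barcodes were kept in libraries 1 to 4, with a median of 6617, 1645.5, 4639 and 7554.5 UMIs. Of the barcode sequences, 191 occurred in more than 1 library. Cell classes were set by marker genes that exclude the 40 members, and they are written X-like: glia-like cells (markers such as Sox10, Erbb3 and Cdh19) numbered 209, 1178, 428 and 5910, and fibroblast-like cells (Col1a1, Dcn, Lum) 6671, 399, 1372 and 1371. Neuron-like barcodes numbered 5236 in library 2 and 3377 in library 3, 2 in library 4, and 0 of 9828 in library 1. Levels are in CPM, summed UMIs of a gene or list scaled to 1000000 UMIs of the same cells, and every interval is an exact 95% interval that covers counting error only. No doublet caller was used. Of the 30073 barcodes in a class, 7636 also reached the gate of a second class. Values without them are given for glia-like levels and for ratios of glia-like to fibroblast-like sums. They are not given for the sums of other classes, shares of cells, splits of cells or correlations.

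A cell copies its DNA in S phase and divides the copies in mitosis. In G1 the loading factors Cdc6 and Cdt1 place the Mcm helicase on replication origins; Cdc45 and the GINS complex turn it on, Pcna clamps the polymerase to DNA, and ribonucleotide reductase (Rrm1, Rrm2) and Tyms supply nucleotides. Later Cdk1 with cyclins A and B drives entry into mitosis, motors and kinetochore proteins align the chromosomes, and the checkpoint kinases hold the cell until Cdc20 starts their separation. In peripheral nerve, Schwann cells are known to divide around birth, to leave the cycle as they myelinate, and to divide again after injury; adult sensory neurons do not divide.

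Promoters of these genes are known for 2 kinds of letters: the cell cycle homology region (CHR), bound with the DREAM and MuvB complexes at mitosis genes, and E2F sites at replication genes. RefSeq promoters of the build GRCr8, from 250 bases before to 50 bases after the gene start, were at hand for 31 of the 40 members. The 8 windows printed here cover the 100 bases before the start, 5′ to 3′ on the strand of the gene. They are shown because their letters were more frequent in one role than in the other. In the first 4, capitals mark TTTGAA or its reverse complement; in the other 4, capitals mark the E2F letters TTCCCGC, or their variant TTGGCGC, or the further variant TTCGCGC, or the last variant TTGCCGC, on either strand, with overlapping matches run together. The windows lie at chr10:84473094-84473193 (Top2a, minus strand), chr1:199952594-199952693 (Mki67, minus), chr10:103572046-103572145 (Birc5, plus), chr20:19265193-19265292 (Cdk1, plus), chr13:42404353-42404452 (Mcm6, minus), chr12:22163179-22163278 (Mcm7, minus), chr4:122918095-122918194 (Mcm2, minus) and chr19:13488713-13488812 (Mcm5, plus).
Top2a: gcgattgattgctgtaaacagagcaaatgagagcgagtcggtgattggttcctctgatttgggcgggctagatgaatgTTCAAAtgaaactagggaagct
Mki67: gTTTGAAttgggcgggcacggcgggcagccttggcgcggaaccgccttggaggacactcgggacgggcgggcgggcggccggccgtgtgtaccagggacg
Birc5: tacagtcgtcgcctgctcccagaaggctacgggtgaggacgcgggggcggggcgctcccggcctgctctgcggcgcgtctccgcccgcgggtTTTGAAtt
Cdk1: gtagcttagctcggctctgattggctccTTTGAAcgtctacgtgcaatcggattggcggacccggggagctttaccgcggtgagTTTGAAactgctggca
Mcm6: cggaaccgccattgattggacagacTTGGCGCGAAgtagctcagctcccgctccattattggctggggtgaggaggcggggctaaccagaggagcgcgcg
Mcm7: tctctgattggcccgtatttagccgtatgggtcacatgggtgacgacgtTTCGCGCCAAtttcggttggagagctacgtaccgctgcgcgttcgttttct
Mcm2: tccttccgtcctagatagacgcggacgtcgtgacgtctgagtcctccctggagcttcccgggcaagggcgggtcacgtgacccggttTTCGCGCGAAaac
Mcm5: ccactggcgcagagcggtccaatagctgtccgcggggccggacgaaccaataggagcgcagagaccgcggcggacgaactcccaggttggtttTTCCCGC

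The nearest match began 22 bases before the start in Top2a, 99 in Mki67, 8 in Birc5 and 16 in Cdk1. Cdk1, the mitotic kinase, had a second match 72 bases before its start. In Mcm6, Mcm7 and Mcm2, subunits of the replicative helicase, matches on opposite strands overlapped, at 75 and 72, 51 and 48, and 13 and 10 bases before the start. Over the promoter tables, TTTGAA on either strand was in 13 of 19 mitosis promoters (68.4%) and 1 of 12 replication promoters (8.33%), against 18.3% of all 33469 promoters. The 4 E2F strings were in 3 of 19 mitosis promoters (15.8%) and 8 of 12 replication promoters (66.7%), against 9.52% of all. CCAAT, the letters read by NF-Y, was in 15 of 19 (78.9%), 8 of 12 (66.7%) and 37.5% of all. The wider lists split the same way: TTTGAA was in 28 of 37 promoters of other mitosis genes and 6 of 32 of other replication genes, and the E2F strings in 6 of 37 and 24 of 32. These matches describe letters in these windows, not binding.

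Mitosis genes were at far higher levels in library 4 than in the other libraries, and replication genes differed less. Summed over all kept barcodes, the 24 mitosis genes stood at 125, 77.0, 194 and 1375 CPM in libraries 1 to 4. The 16 replication genes stood at 204, 133, 154 and 383 CPM. All 40 members were highest in library 4, and for 24 of 24 mitosis and 15 of 16 replication members the library 4 interval lay above those of the other libraries. Library 4 exceeded the next library by a median of 6.31-fold over the mitosis members (1.82-fold for Aurka to 13.1-fold for Kif11) and of 2.39-fold over the replication members (1.02-fold for Pcna to 16.6-fold for Rrm2). The libraries also differed in class makeup, with 70.0% of library 4 glia-like and 67.9% of library 1 fibroblast-like, so tissue, age, makeup and library cannot be told apart here.

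Among the mitosis genes, the kinetochore protein Cenpf stood at 11.5, 4.21, 13.8 and 171 CPM in libraries 1 to 4. Top2a, which untangles DNA, stood at 10.3, 5.10, 15.0 and 164 CPM. Mki67, which coats mitotic chromosomes and is the usual proliferation marker, stood at 13.3, 4.91, 11.9 and 155 CPM. In these 3 genes library 4 was over 10-fold above any other library and library 2 was lowest. Ube2c, the ubiquitin enzyme of the anaphase-promoting complex, stood at 12.7, 6.30, 16.4 and 99.5 CPM, and Cdk1 at 7.02, 5.16, 12.6 and 68.3 CPM. Cenpe, a kinetochore motor, stood at 7.51, 2.85, 8.38 and 74.5 CPM, and the inner kinetochore protein Cenpw at 5.24, 3.75, 10.8 and 71.9 CPM. Both spindle proteins named by the rule kept this order: Nusap1 stood at 5.95, 4.42, 7.27 and 63.0 CPM and Tpx2 at 7.66, 4.85, 8.76 and 56.8 CPM. Birc5 (survivin), of the chromosomal passenger complex, was flatter, at 6.04, 8.02, 22.0 and 62.5 CPM. The other 14 mitosis members ranged from 0.382 to 6.73, 0.182 to 6.02, 0.555 to 12.6 and 6.10 to 54.7 CPM in libraries 1 to 4, with the checkpoint gene Bub1b lowest in each.

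Among the replication genes, Pcna stood at 113, 70.8, 61.0 and 115 CPM, nearly level between libraries 4 and 1. It held 55.4%, 53.1%, 39.6% and 30.1% of all replication UMIs, so sums are also given without it: 91.1, 62.5, 93.0 and 267 CPM. Rrm1, the large subunit of ribonucleotide reductase, stood at 18.5, 13.2, 21.9 and 45.2 CPM. Its partner Rrm2 stood at 0.628, 0.279, 1.36 and 22.7 CPM, a spread between libraries like that of the mitosis genes. The helicase subunits stood between these: Mcm6 at 10.8, 4.65, 9.63 and 31.9 CPM, Mcm7 at 10.3, 6.30, 9.86 and 28.4 CPM, Mcm4 at 10.4, 9.71, 8.56 and 24.4 CPM. Mcm3 stood at 7.09, 2.79, 3.71 and 20.8 CPM and Mcm2 at 7.31, 4.86, 4.67 and 17.7 CPM. These 5 subunits were each over 2-fold higher in library 4 than in any other. Ccne1, the cyclin of S phase entry, stood at 7.77, 6.43, 10.2 and 19.0 CPM, and Gins2 at 3.82, 3.77, 5.28 and 11.5 CPM. The other 6 replication members (Mcm5, Tyms, Ccne2, Cdc6, Cdt1 and Cdc45) lay between 1.04 and 4.34, 1.09 and 2.85, 2.06 and 3.83, and 5.84 and 11.7 CPM.

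**Figure D1:**
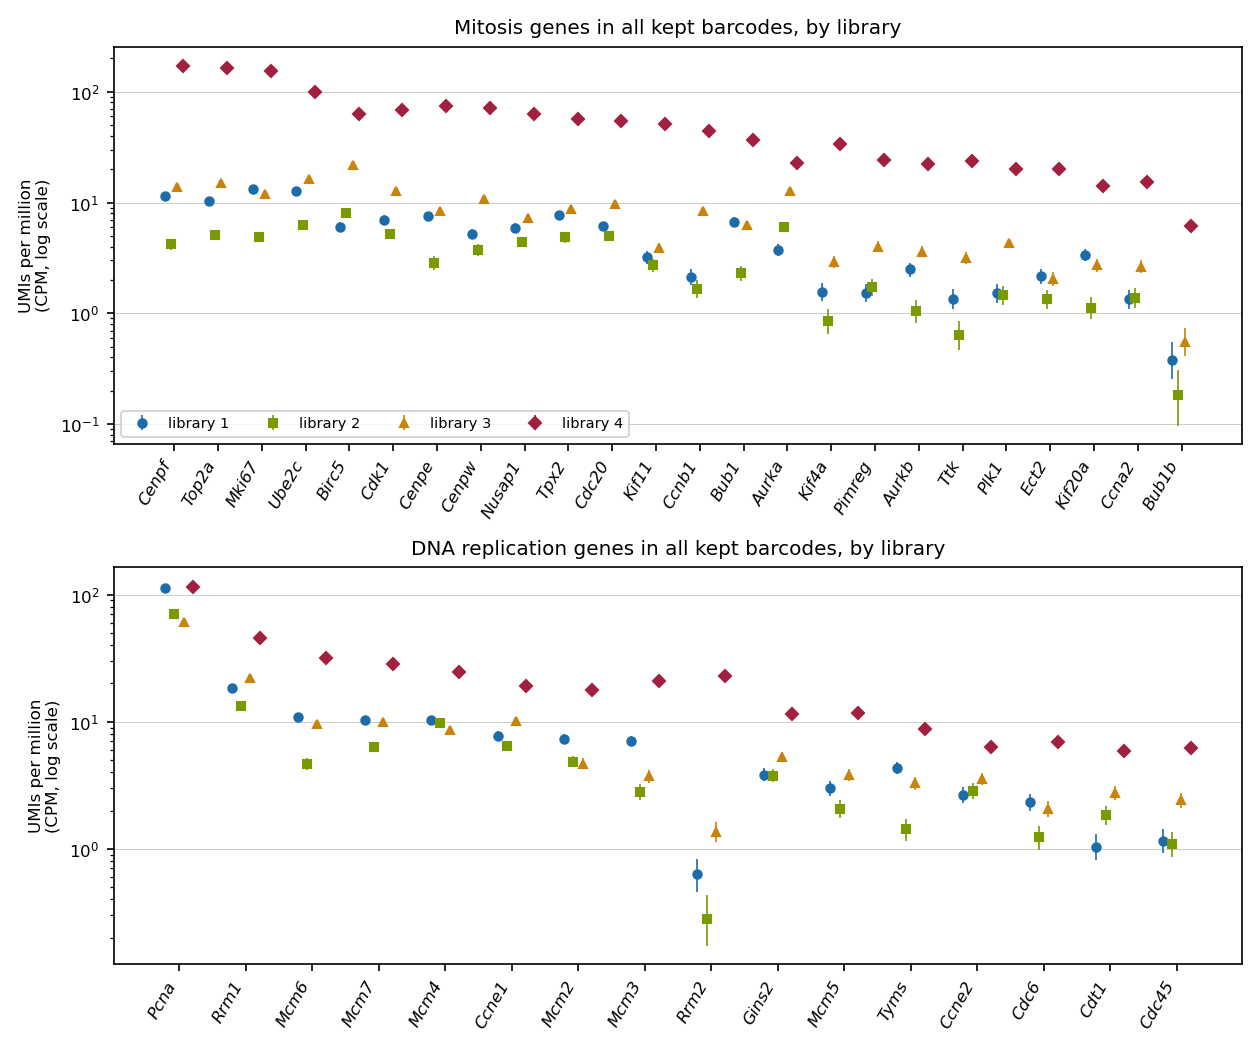
Level of each member (CPM, log axis) in all kept barcodes of libraries 1 to 4, with exact 95% counting intervals; genes run from most to fewest UMIs. Library 4 lies highest for all 40 members, by 13.1-fold for Kif11 and 16.6-fold for Rrm2 over the next library but 1.02-fold for Pcna.

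Split by class, the mitosis sum varied far more than the replication sum. In glia-like cells the mitosis genes stood at 436, 144, 965 and 1512 CPM in libraries 1 to 4 and the replication genes at 273, 212, 258 and 378 CPM. In fibroblast-like cells they stood at 110.1, 93.8, 707 and 1009 CPM and 166, 150, 380.2 and 388 CPM. Of the fibroblast-like mitosis sum in library 2, 5 barcodes held 75.7%. Mural-like cells, the contractile cells of vessel walls, held the highest mitosis sum of the larger classes in libraries 3 and 4, at 1667 (1561 to 1779) and 1534 (1450 to 1621) CPM, and the lowest in library 2, at 25.4 CPM (12.7 to 45.5); the library 4 interval overlaps that of the glia-like cells, and 5 barcodes held 48.1% and 60.8% of the mural-like sum in libraries 3 and 4. Endothelial-like cells stood at 48.6, 313, 257 and 1130 CPM, and 5 barcodes held 34.2%, 51.8%, 62.2% and 50.6% of these sums. Over these classes the replication sum stayed between 150 and 388 CPM. A second class was reached by 97 of 111, 121 of 160 and 26 of 101 mural-like barcodes of libraries 2 to 4. For endothelial-like barcodes of libraries 1 to 4 it was 34 of 117, 413 of 518, 118 of 185 and 26 of 65. The sums of both classes without these barcodes are not given.

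Neurons do not divide, and neuron-like barcodes held low sums: 36.2 CPM in library 2 and 75.1 CPM in library 3 for mitosis genes, and 90.0 and 111 CPM for replication genes. In them Birc5 and Aurka, the spindle pole kinase, made up 38.2% and 40.8% of the mitosis UMIs, against 8.46% and 9.56% in glia-like cells of the same libraries. Birc5 stood at 18.7 CPM (17.7 to 19.8) and Aurka at 11.9 CPM (11.1 to 12.7) in neuron-like barcodes of library 3, where Mki67 stood at 2.29 and Top2a at 2.15 CPM. This ratio among mitosis genes differed from that in the glia-like cells of library 3, where Birc5 stood at 70.3, Aurka at 22.0, Mki67 at 63.7 and Top2a at 122 CPM. Whether reads of overlapping genes add to Birc5 or Aurka was not tested.

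**Figure D2:**
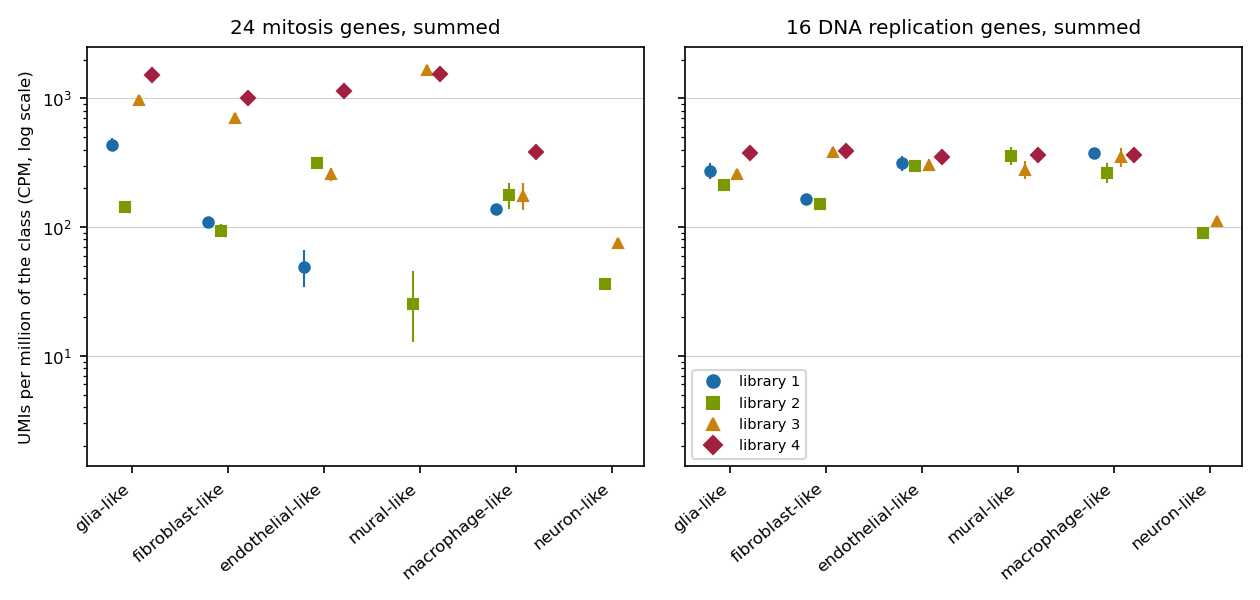
Summed level (CPM, log axis) of the 24 mitosis genes (left) and the 16 replication genes (right) in 6 marker-gated classes of libraries 1 to 4, with exact 95% counting intervals; groups under 20 cells are not drawn. Mitosis sums run from 25.4 to 1667 CPM and replication sums from 90.0 to 388 CPM.

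Mitosis UMIs were found in a minority of glia-like cells in libraries 1 to 3 and in most of them in library 4, and the barcodes richest in them held most of these UMIs in every library. At least 1 mitosis UMI was present in 27 of 209, 219 of 1178, 111 of 428 and 3495 of 5910 glia-like barcodes. These barcodes were not thinned, and such shares rise with depth: the median depths were 2909, 8544, 3848 and 7280.5 UMIs. The 5 barcodes with the most mitosis UMIs held 91.8%, 49.6%, 35.4% and 2.65% of the sum. Without those 5 the glia-like mitosis level was 37.9, 73.1, 638 and 1475 CPM, so that of library 1 rested on them, and those of libraries 2 and 3 fell by over 1.5 times. In library 1 the level was also 55.6 CPM (31.8 to 90.3) without barcodes that reach a second class. Replication UMIs were more evenly spread: the tenth of barcodes richest in them held 39.8%, 43.1%, 51.5% and 53.2%, against 98.0%, 93.9%, 95.6% and 88.8% for mitosis UMIs.

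The glia-like mitosis level differed with mitochondrial content, and was lower over 10% in libraries 2 to 4. In library 4, barcodes with at most 10% mitochondrial UMIs (1347 of 5910) stood at 3128 CPM (3096 to 3159), and those over 10% at 981 CPM (971 to 991). The replication sum differed less between them, 507 and 336 CPM. Library 3 had 1262 CPM at or under and 450.4 CPM over this limit, library 2 had 277 and 136 CPM, and library 1 the other order, 354 and 522 CPM. In fibroblast-like cells of library 4 the mitosis sum was 999 CPM at or under and 1260.2 CPM over the limit. Their median depths were 13088 and 893 UMIs. The part of mitochondrial content in the levels was not tested.

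Within glia, mitosis genes were high in cells with immature markers (Ncam1, Ngfr, L1cam, Sox2, Gap43) and low in cells with myelin markers (Mag, Prx, Cldn19, Pllp, Mal, Gldn). Immature cells were not alone in this: glia-like cells in none of the 3 sub-classes had 1887 CPM (1766 to 2014) in library 3, above the 1571 CPM (1428 to 1724) of immature cells there, and 1361 CPM in library 4, where they held 25617 of the 74883 glia-like mitosis UMIs. Both sums of library 3 rest on few barcodes: 5 held 63.3% in the cells of no sub-class and 71.2% in the immature cells. In library 4 the mitosis sum was 2176 CPM (2157 to 2196) in 2474 immature glia-like cells and 326 CPM (314 to 337) in 1076 myelinating glia-like cells. Of the 23 mitosis members with 20 UMIs in the myelinating cells, 23 were 2-fold or more higher in the immature cells, where 5.63% of 9818 such genes were, and their median log2 ratio was 2.79. Bub1b reached 20 UMIs in the immature cells alone, at 189 against 6 UMIs (3.79). The largest ratios among the rest were in Ect2, which drives cytokinesis (3.27), the checkpoint kinase Ttk (3.23), Top2a (3.16), Aurkb and Plk1 (3.14 each). The smallest were in Bub1 (2.35), Cdc20 (1.82) and Aurka (1.72). The 5 barcodes richest in mitosis UMIs held 43.2% of the sum in the myelinating cells and 4.09% in the immature cells. At most 10% mitochondrial UMIs, the log2 ratio of the summed mitosis genes was 1.98, against 2.74 (2.69 to 2.79) in all.

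The replication genes separated these cells less. Their sum was 411 CPM in immature and 240.4 CPM in myelinating glia-like cells of library 4, a log2 ratio of 0.77 (0.71 to 0.84). Of 16 members, 8 were 2-fold or more higher and 0 lower, where 3.74% of such genes were lower, and the median log2 ratio was 1.0. Rrm2 had the largest ratio, 3.04, at 38.1 against 4.64 CPM, followed by Mcm5 (1.73), Cdc45 (1.68), Tyms (1.39) and Mcm3 (1.18). Mcm6 (0.59), Pcna (0.33) and Mcm7 (0.28) had the smallest. Pcna stood at 125 CPM in immature and 99.3 CPM in myelinating cells. Of the other genes of these roles with 20 UMIs in the myelinating cells, 32 of 34 mitosis and 15 of 31 replication genes were 2-fold or more higher and 0 and 1 lower. The largest ratios were in genes that reached 20 UMIs in the immature cells alone: Kif18b (469 against 15 UMIs, 3.78), Ncapg (303 against 15, 3.15) and Clspn (77 against 4, 3.08). The inhibitors Cdkn1b (-1.62, 223 against 687 CPM) and Cdkn1c (-1.39, 234 against 616 CPM) stood lower in the immature cells, Cdkn2c (70.9 against 25.0 CPM) and Cdkn1a (1.04) higher, so that of the 8 members of their list with 20 UMIs in the myelinating cells 2 were 2-fold or more higher and 2 lower. Of the G1 list 1 of 8 was higher, Myc (1.19), and 2 were lower, Mycn (-1.65) and Ccnd2 (-1.53). Of 9 transcription factors 3 were higher and 0 lower, namely Foxm1 (2.45), Mybl2 (1.96) and Lin9 (1.21). In libraries 1 to 3 myelinating glia-like cells had mitosis sums of 29.5 (12.7 to 58.1), 9.50 (1.96 to 27.8) and 27.2 (17.3 to 40.9) CPM, from 8, 3 and 23 UMIs, with replication sums of 251, 152 and 143 CPM. Satellite glia-like cells are named after the glia that ensheath sensory neurons. Mitosis genes stood at 136, 1801 and 863 CPM in the 775, 59 and 50 such cells of libraries 2 to 4. In each library 5 barcodes held most of the sum, 65.9%, 83.2% and 68.4%. Library 4 held only 2 neuron-like barcodes, so there the name rests on the markers alone.

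The balance of the programs follows from these sums. Replication genes made up 38.5% (34.2 to 42.9), 59.5% (58.0 to 61.0) and 21.1% (19.4 to 22.8) of member UMIs in glia-like cells of libraries 1 to 3, and between 19.8% and 20.3% in those of library 4. In fibroblast-like cells they made up 60.2%, 61.5%, 35.0% and 27.8%. Neuron-like barcodes stood at 71.3% in library 2 and 59.7% in library 3. Myelinating glia-like cells had shares of 89.5%, 94.1%, 84.0% and 42.5%, above the 23.5%, 40.2%, 17.5% and 15.9% of immature glia-like cells in every library. In library 1 the immature share rests on 1 barcode, which held 113 of the 117 mitosis UMIs of 23 cells. In library 2, 5 barcodes held 94.2% of the mitosis UMIs of the immature cells. Without Pcna the glia-like shares were 21.0%, 36.6%, 13.5% and 14.6%.

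Shares of cells were compared after each barcode was thinned to 1000 UMIs, which left out 2, 8, 4 and 27 glia-like and 13, 5, 8 and 210 fibroblast-like barcodes of libraries 1 to 4. The mark was 3 or more distinct mitosis genes in a cell, and whether marked cells were in mitosis itself was not tested. In libraries 1 to 4, 2 of 207 (0.966%), 9 of 1170 (0.769%), 31 of 424 (7.31%, 5.02 to 10.2) and 576 of 5883 (9.79%, 9.04 to 10.6) glia-like cells reached it. Unthinned, it was 1.95% for library 2 and 20.8% for library 4. Fibroblast-like cells reached it in 41 of 6658 (0.616%), 2 of 394 (0.508%), 83 of 1364 (6.09%) and 93 of 1161 (8.01%, 6.51 to 9.72). Mural-like cells had 18 of 159 (11.3%) in library 3 and 11 of 99 (11.1%) in library 4. Neuron-like barcodes, taken as the background, had 6 of 3162 (0.190%, 0.0697 to 0.413) in library 2 and 19 of 2471 (0.769%) in library 3, with 2074 and 906 left out. Their median depths before thinning were 1494 and 29307 UMIs, and those of the glia-like cells 8578 and 3868 UMIs. The 19 barcodes of library 3 had a median of 2751 UMIs, against 29606 in the other neuron-like barcodes. The glia-like share of library 3 thus lay above its background. The 0.769% of library 2 (0.352 to 1.46) was higher than its background of 0.190% (0.0697 to 0.413), but these intervals overlap. In library 4, 350 of 2473 immature (14.2%, 12.8 to 15.6) and 20 of 1073 myelinating glia-like cells (1.86%, 1.14 to 2.86) reached the mark.

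Within library 4, glia-like cells set against fibroblast-like cells had higher mitosis genes and a mixed replication program. The order of the mitosis sums turned with mitochondrial content: at most 10% mitochondrial UMIs gave 3128 CPM in glia-like and 999 CPM in fibroblast-like cells, and over 10%, which takes in 4563 of 5910 glia-like and 229 of 1371 fibroblast-like cells, gave 981 and 1260.2 CPM. Those 229 fibroblast-like barcodes were shallow, with a median of 893 UMIs. The median was 13088 UMIs in fibroblast-like cells at or under 10% and 7181 UMIs in glia-like cells over 10%. The part of depth in this turn was not tested. The values that follow take all cells. By the counting intervals 19 of 24 mitosis members were higher and 0 lower in glia-like cells, where 38.9% and 35.0% of 12850 genes were, and the median log2 ratio was 0.54 (0.05 over all genes). Pimreg (1.65, 30.3 against 9.70 CPM), Birc5 (1.08), Ect2 (0.96), Cdc20 (0.93) and Cenpw (0.90) were furthest up. Aurkb, the kinase of the chromosomal passenger complex, was at 21.4 CPM in glia-like and 23.7 CPM in fibroblast-like cells (-0.15, -0.31 to 0.02), and Ccnb1 and Bub1b were at 0.08 each, with intervals that span 0. Of 16 replication members, 3 were higher and 9 lower, with a median of -0.29. Rrm2 (1.37, 27.6 against 10.7 CPM), Mcm7 (0.53) and Pcna (0.41) were the higher ones, and Cdc45 (0.12) and Cdt1 (0.03) came next with intervals that span 0. Mcm2 (-0.84, 14.7 against 26.5 CPM), Mcm4 (-0.70) and Ccne2 (-0.68) were furthest down. Subunits of one helicase thus stood on both sides of 0.

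In library 3 the replication genes were mostly lower in glia-like than in fibroblast-like cells. By interval 1 of 16 was higher and 12 were lower, where 26.9% and 24.8% of 10450 genes were, with a median of -1.04. Ccne2 (3 UMIs in glia-like cells, -2.45, -4.76 to -0.85), Cdc6 (2 UMIs, -5.70 to -0.71) and Cdc45 (4 UMIs, -1.96) were lowest, while Mcm2 (-1.40, 8.24 against 21.7 CPM) and Mcm4 (-1.39, 8.24 against 21.5 CPM), with more UMIs, were less far down. Pcna (0.27, 107 against 88.7 CPM), Mcm7 (0.07), Rrm2 (-0.20), Cdt1 (-0.60) and Ccne1 (-0.83) were the 5 highest. The log2 ratio of the summed replication genes was -0.56 (-0.70 to -0.42), and -0.60 without the 5 glia-like barcodes richest in mitosis UMIs. Of the mitosis genes 10 of 24 were higher and 0 lower, led by Pimreg (1.36), Birc5 and Ect2 (1.13 each), Cdc20 (0.86) and Aurka (0.81), with Aurkb (-0.26), Kif20a (-0.33) and Ccna2 (-0.79) at the other end. The sum of the mitosis genes, at 0.45 (0.37 to 0.53), was -0.15 without those 5 barcodes and -0.05 without barcodes of a second class. For the value of -0.15 the fibroblast-like side was left whole, where 5 barcodes held 11.9% of the mitosis sum.

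In libraries 1 and 2 this contrast rested on few cells. The mitosis sum was at 1.99 (1.82 to 2.16) in library 1 and 0.61 (0.42 to 0.80) in library 2, and at -1.53 and -0.35 without the 5 glia-like barcodes richest in mitosis UMIs. The fibroblast-like side was left whole there, although 5 barcodes held 19.0% and 75.7% of its mitosis sum in libraries 1 and 2. Without barcodes of a second class the ratio was -0.99 in library 1 and 3.60 in library 2. With all barcodes, 15 of 23 measured mitosis members were higher by interval in library 1, where 28.0% of 12657 genes were. Kif4a (3.35), Kif11 (2.87), Nusap1 (2.77), Pimreg (2.72) and Cenpf (2.69) were highest in library 1, on 7 to 44 UMIs each in glia-like cells. Among members not raised to the floor, Ccnb1 (0.99), Birc5 (0.92) and Cenpe (0.81) were lowest there, with intervals that span 0. By CPM, Plk1 (1 against 78 UMIs, 1.43 against 1.35 CPM) and Ccna2 (1 against 72 UMIs, 1.43 against 1.25 CPM) were lower still. In library 2, 20 of the 22 measured mitosis members reached 20 UMIs in glia-like cells alone, and of the other 2 members 0 were higher and 0 lower by interval. There Pimreg (43 against 2 UMIs, 0.50 to 5.53), Mki67 (1.70), Tpx2 (1.64), Top2a (1.39) and Kif11 (1.36) were highest, and Ube2c (-0.26), Cdc20 (-0.33) and Bub1 (-0.74) lowest, with intervals that span 0. Of 16 replication genes in library 1, 2 were higher and 0 lower (12.5% of all genes). The median log2 ratio of these replication genes was 0.86 and the ratio of Pcna 0.89, against a median of 0.7 over all genes. Of the 5 with 20 UMIs in fibroblast-like cells of library 2, 3 were higher and 1 lower, where 21.5% and 40.4% of 7860 such genes were. Pcna was among the higher ones in both, at 157 against 85.1 CPM in library 1 and 129 against 86.9 CPM in library 2, and the lower one was Ccne1, at -2.12 on 20 against 22 UMIs.

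**Figure D3:**
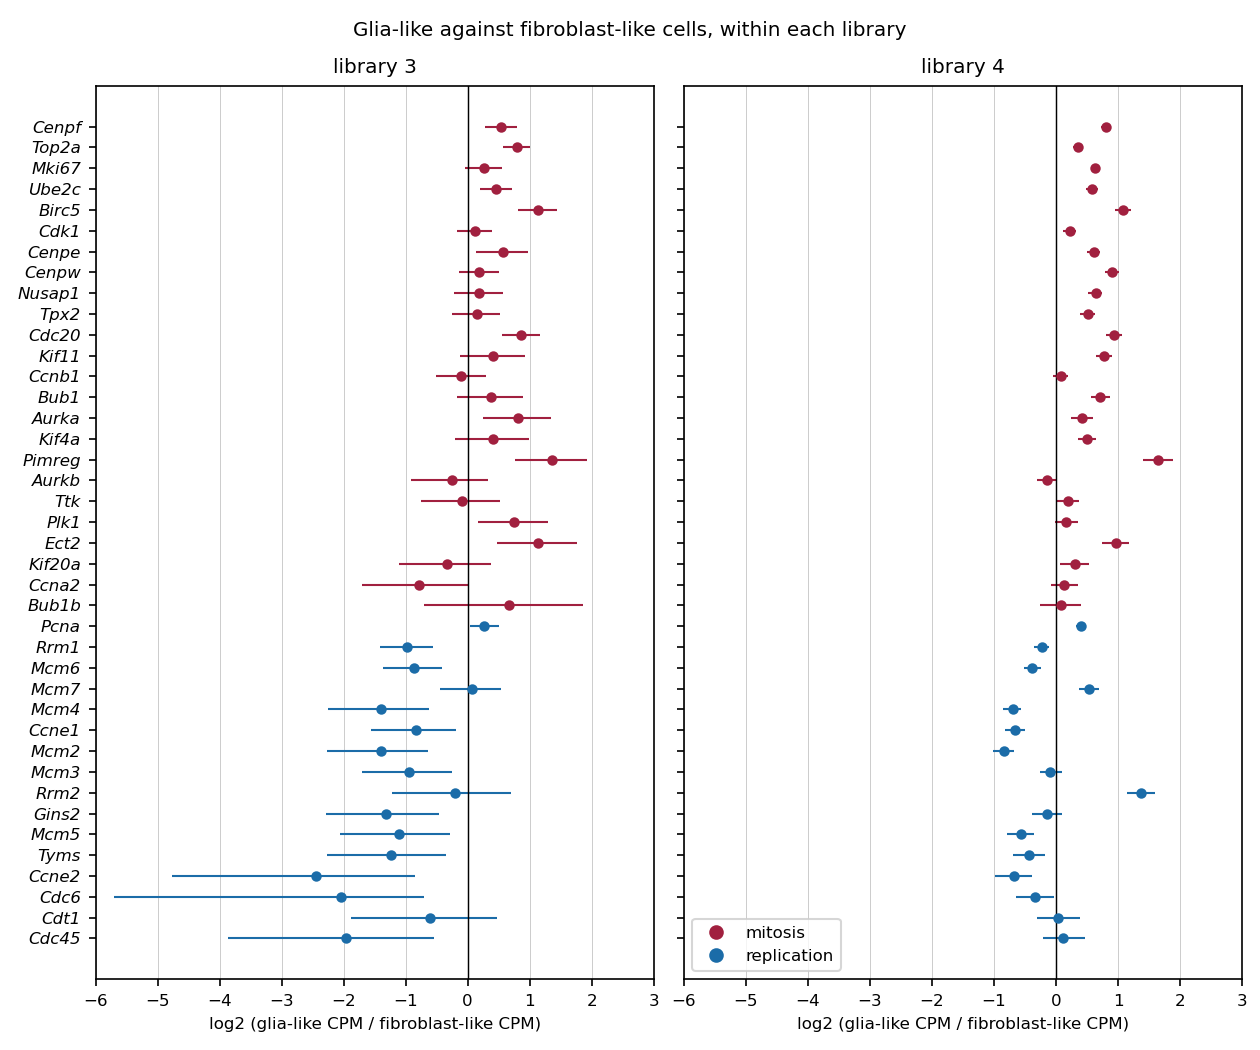
Log2 ratio of CPM in glia-like over fibroblast-like cells for the 40 members in library 3 (left) and library 4 (right), with exact 95% counting intervals; Cdc6 in library 3 is drawn at the floor of 3 UMIs. Mitosis members lie mostly right of 0 (median 0.41 in library 3 and 0.54 in library 4) and replication members mostly left of it (-1.04 and -0.29).

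Other genes of the cycle, from lists by role, were set between the same classes in library 4, where 38.9% of all genes were higher and 35.0% lower by interval. In these terms, of the genes with 20 UMIs in fibroblast-like cells, 28 of 42 other mitosis genes were higher and 6 lower, led by Pbk (1.08), Kif14 (0.98) and Ncaph (0.96). Of 37 measured other replication genes 12 were higher and 12 lower, with Cdc7, the kinase that fires origins (1.61), Fen1 (1.49) and Prim2 (0.93) the largest. Among 8 G1 cyclins, kinases and Myc genes 4 were higher and 2 lower: Ccnd2 stood at 14.8 against 88.8 CPM (-2.59), Myc at 451 against 80.8 CPM (2.48) and Mycn at 48.7 against 10.5 CPM (2.22). Of 11 inhibitors and pocket proteins 5 were higher and 4 lower. The kinase inhibitors Cdkn2b (-7.29, 0.182 against 28.5 CPM), Cdkn2a (-4.65) and Cdkn1c (-2.01, 345 against 1384 CPM) were lowest. Of 9 transcription factors 5 were higher and 2 lower, led by Lin9 (0.99), E2f5 (0.86) and Foxm1 (0.81).

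Glia-like cells of library 4 were then split by the program they carried. Of 5883 cells thinned to 1000 UMIs, 576 had 3 or more mitosis genes, and the replication genes, which that split did not use, were higher in them. Their summed log2 ratio over the other cells was 1.45 (1.29 to 1.60). Of the 14 members with 20 UMIs in the other cells, 7 were 2-fold or more higher and 0 lower, where 5.67% and 4.63% of 9046 such genes were. Rrm2 reached 20 UMIs through the 576 cells alone, and is given as a value: 83 UMIs there and 13 in the 5307 others, or 144 and 2.45 CPM (5.88, 5.03 to 6.85). Cdc45, which activates the helicase (2.97, 29.5 against 3.77 CPM), the thymidylate enzyme Tyms (2.41), Rrm1 (2.14, 108 against 24.5 CPM) and Cdt1 (1.62) were next. The smallest ratios were in Ccne1 (0.84, -0.06 to 1.65), Mcm2 (0.79, -0.24 to 1.69) and Pcna (0.69, 0.37 to 0.99, 181 against 112 CPM). The 576 cells had a median of 11092 UMIs before thinning, against 7157 in the others. Among them 40.6% reached a second class, against 33.7% of the others, and their median mitochondrial share was 10.1%, against 11.5%.

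Of 43 other mitosis genes, 25 had 20 UMIs in the other cells, and 25 of these were 2-fold or more higher in the cells with mitosis genes. A further 12 reached 20 UMIs through those cells alone, among them the largest ratios of the list: Ckap2l (6.63, 43 against 4 UMIs), Kif2c (6.41, 46 against 5) and Cdca2 (5.83, 37 against 6). Of 28 measured other replication genes 21 were higher and 1 lower, led by Uhrf1 (3.64), Dbf4 (3.58) and Tk1 (3.51). The G1 cyclins did not share this: 0 of 8 genes of that list were higher and 1 was lower. Ccnd1 stood at 165 against 282 CPM (-0.77, -1.09 to -0.47), Cdk6 at 12.2 against 23.4 CPM (-0.94, -2.29 to 0.14), and Ccnd2 had 2 against 85 UMIs (-5.27 to -0.31). Of 8 measured inhibitors and pocket proteins 1 was higher, Cdkn2c, at 220.5 against 29.8 CPM (2.89); Rb1 (-0.52) and Btg1 (-0.42) had the next largest ratios. Of 7 transcription factors with 20 UMIs in the other cells 2 were higher, the MuvB parts Lin54 (1.66) and Lin9 (1.47), and Foxm1, which drives mitosis genes, had 22 against 16 UMIs (3.66, 2.67 to 4.69).

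The reverse split took cells with 3 or more replication genes other than Pcna at 5000 UMIs, 460 of 5234 cells. The mitosis genes, not used by it, were higher throughout. A total of 23 of 24 were 2-fold or more higher and 0 lower, where 4.95% and 2.19% of 11297 genes were, and the median log2 ratio was 1.79. The sum was at 1.87 (1.84 to 1.91). Cdk1 (2.74, 234 against 34.9 CPM), Top2a (2.71, 542 against 82.7 CPM), the spindle motor Kif11 (2.55), Aurkb (2.47) and Nusap1 (2.46) were highest. Cenpf (1.16, 303 against 136 CPM), Ccnb1 (1.04) and Pimreg (0.98, 0.67 to 1.27) were lowest. Mki67 lay between, at 463 against 103 CPM (2.17, 2.06 to 2.27). In this order Pimreg came last, whereas it had the largest ratio of glia-like to fibroblast-like cells among the mitosis members in libraries 3 and 4.

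In those cells 35 of 36 other replication genes were 2-fold or more higher, led by Pole2 (4.26), Clspn (3.92) and Mcm10 (3.79), and 39 of 42 other mitosis genes, led by Melk (3.50), Pbk (3.46) and Ncapg (3.01). Of 8 G1 genes 1 was higher, Cdk2 (1.62). Ccnd1 stood at 379 against 267 CPM (0.51, 0.40 to 0.61), on the other side of 0 from its value in the cells with mitosis genes. Of 9 inhibitors and pocket proteins 2 were higher, Rbl1 (3.50) and Cdkn2c (1.45); Cdkn1c stood at 207 against 361 CPM (-0.80, -0.94 to -0.67) and Cdkn1b at 217 against 326 CPM (-0.59). Of 9 transcription factors 6 were higher, led by Mybl2, the MuvB partner of S phase and G2 (4.19, 52.2 against 2.85 CPM), Foxm1 (2.28) and Lin9 (1.76). Again these cells were deeper before thinning, with a median of 10629.5 against 7476 UMIs, and 45.4% (40.8 to 50.1) of them reached a second class, against 35.6% of the others.

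**Figure D4:**
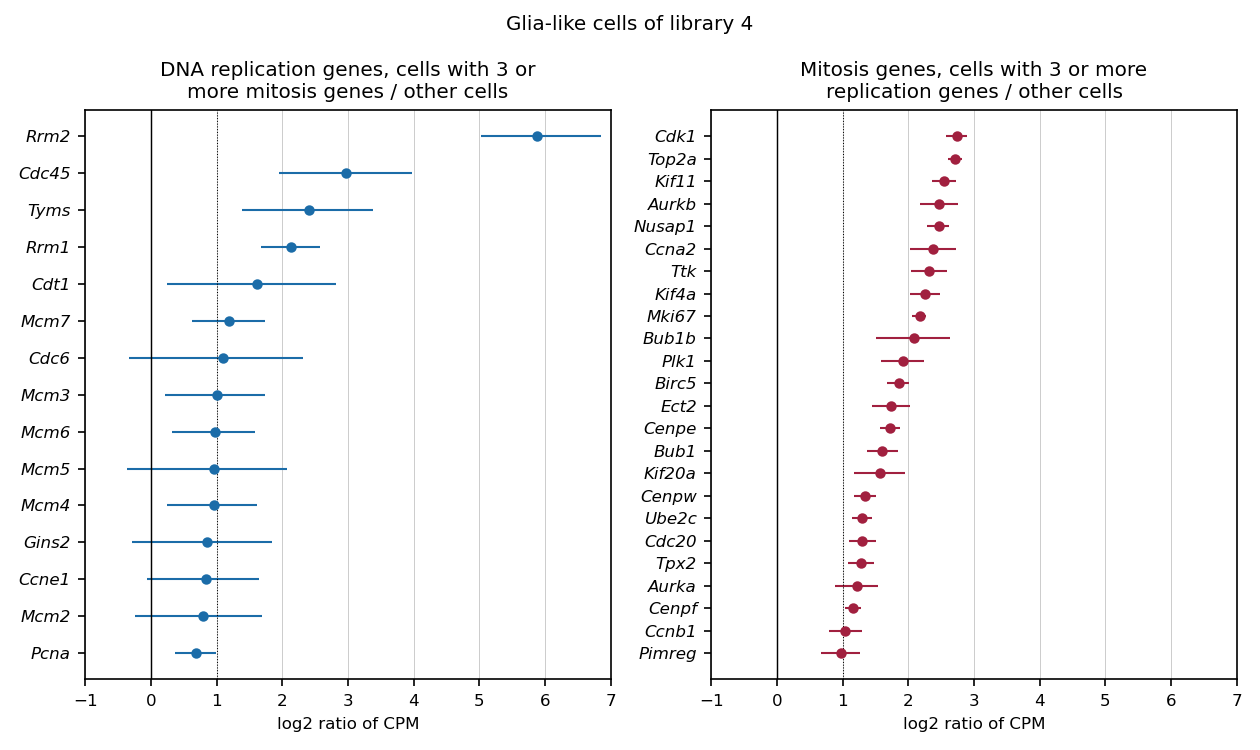
Log2 ratio of CPM in glia-like cells of library 4. Left, the 15 measured replication members in cells with 3 or more mitosis genes over the other cells (1000 UMIs per cell); right, the 24 mitosis members in cells with 3 or more replication genes over the other cells (5000 UMIs per cell). Bars are exact 95% counting intervals and the dotted line marks 2-fold; Rrm2 stands at 5.88 and Pcna at 0.69 on the left, Cdk1 at 2.74 and Pimreg at 0.98 on the right.

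The programs overlapped in part of the cells. At 5000 UMIs, 904 of 5234 glia-like cells of library 4 had 3 or more mitosis genes, 460 had 3 or more replication genes without Pcna, and 256 had both. Of the 904, 233 had no replication UMI other than Pcna, and of the 460, 90 had no mitosis UMI. Replication genes other than Pcna summed to only 259 CPM in these glia-like cells before thinning, so a cell can lack such UMIs through sampling. Neither the absences nor the overlap were set against what sampling alone would give. In immature glia-like cells the counts with mitosis genes, with replication genes and with both were 482, 225 and 140 of 2215, and in myelinating glia-like cells 42, 28 and 9 of 943. Fibroblast-like cells of library 4 had 145, 117 and 54 of 1070, and those of library 3 had 137, 121 and 74 of 894. Neuron-like barcodes of library 3 had 25, 13 and 2 of 1696.

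Fibroblast-like cells split in the same manner. Cells with 3 or more mitosis genes had summed replication genes at 1.40 (1.00 to 1.79) over the other cells in library 3 and 1.26 (0.87 to 1.64) in library 4. Of 8 and 7 measured replication members, 5 and 3 were 2-fold or more higher, where 9.64% of 5821 and 6.68% of 5688 genes were. Rrm1 was the highest in both, at 2.30 and 2.36, and was followed by Mcm7 (1.57, -0.17 to 2.97) in library 3 and Mcm3 (4 against 20 UMIs, -0.81 to 2.78) in library 4. Mcm3 in library 3 and Mcm4 in library 4 were under the floor in the cells with mitosis genes and were lowest by CPM: Mcm3 had 1 against 22 UMIs in library 3 (-5.88 to 2.12) and Mcm4 had 2 against 35 UMIs in library 4 (-3.71 to 1.35). The cells with mitosis genes were again deeper, with medians of 8610 against 5688 and 19200 against 12926 UMIs, and 45.8% against 56.8% and 24.7% against 14.9% of them reached a second class. Cells with 3 or more replication genes had higher mitosis genes in libraries 1, 3 and 4: 20 of 20, 21 of 22 and 20 of 24 measured members were 2-fold or more higher, where 10.3%, 5.03% and 4.53% of all genes were, with medians of 4.13, 2.21 and 1.66. In library 4, 27.4% of these cells reached a second class, against 15.4% of the others, and in library 3 38.0% against 51.6%. Ccnb1 had the smallest ratio in each library, at 2.40, 0.95 and 0.18, and Top2a (6.08), Nusap1 (3.21) and Mki67 (2.60) the largest.

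Over single glia-like cells of library 4 the mitosis genes moved together more than the replication genes did. Pearson correlations of log(1 + UMIs) over 5234 cells, each thinned to 5000 UMIs, had a median of 0.528 (0.164 to 0.812) over 276 pairs of mitosis genes and 0.13 (0.036 to 0.318) over 120 pairs of replication genes. Over 384 pairs of a mitosis and a replication gene the median was 0.053 (-0.035 to 0.607). Mki67 with Cenpf (0.812) and Top2a with Nusap1 (0.81) were the most alike. Among replication genes, Mcm3 with Mcm6 (0.318) and Mcm3 with Mcm5 (0.30) were the most alike. Rrm2 stood closest to the mitosis genes among the replication genes: its correlations ran from 0.201 with Kif20a to 0.607 with Top2a among mitosis genes, and from 0.068 with Gins2 to 0.292 with Rrm1 among replication genes. Rrm1 itself was at 0.30 with Top2a and 0.294 with Cdk1, slightly above its value with Rrm2. All pairs share the cells, the library and the depth, and most replication members had fewer UMIs than the mitosis members, so the weak values are given as descriptions only.

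**Figure D5:**
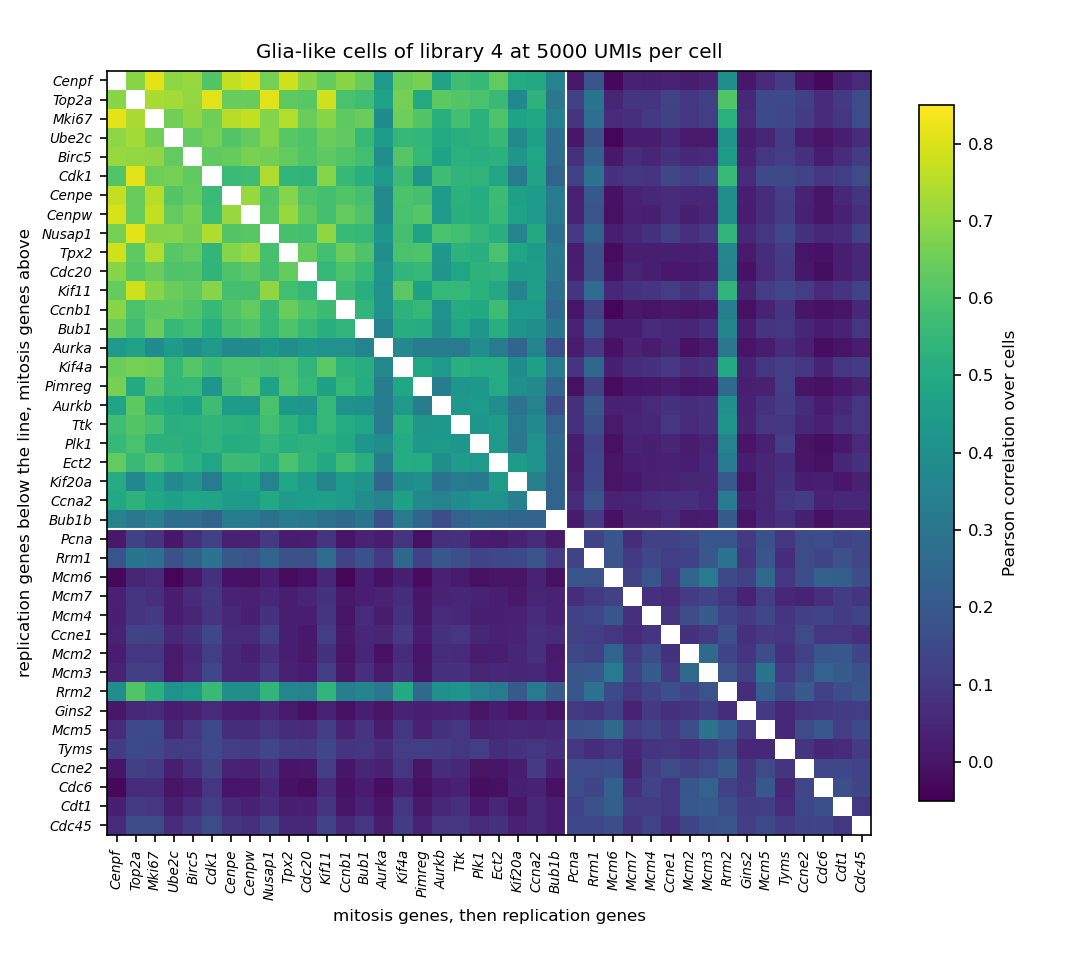
Pearson correlation between members over 5234 glia-like cells of library 4 at 5000 UMIs per cell, mitosis genes before replication genes, each ordered by total UMIs; the diagonal is blank. The mitosis block has a median of 0.528 and the replication block of 0.13, and the Rrm2 row stands out among mitosis genes with values up to 0.607.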

How the data were processed

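The deposited file holds UMI counts, made with Cell Ranger 3.1.0 per the file headers; per the submitters' processing notes, CASAVA 1.8, Seurat and the build Rnor_6.0 were used as well, in roles not given. A barcode was kept with 500 or more genes detected and no more than 20% of its UMIs mitochondrial (33175 of 41444; 336170988 UMIs in all). Of 99 listed markers of 15 classes, 78 were used (at least 100 UMIs). A barcode took the class with the highest score, from 0.15 up and 1.5 times the next, with 3 or more markers detected; the score is the mean of marker levels relative to their richest barcodes. Of the kept barcodes 3102 (9.35%) took no class, and 3438 (10.4%) lay near the gate. Glia-like barcodes were divided further by immature, myelinating and satellite markers.

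UMIs were summed per side, and log2 ratios of CPM took a floor of 3 UMIs; a gene needed 20 UMIs on 1 side, and a side raised to the floor was never called higher. Where members reached 20 UMIs through the first side alone, counts and their background take the genes with 20 UMIs on the second. Intervals are exact: Poisson for levels, Clopper-Pearson for shares and ratios. "Higher" and "lower" mean past 2-fold or, where stated, an interval that excludes 0. With 1 library in each group no test was possible. Cells were thinned at random to a fixed number of UMIs. The ratios were checked on Poisson counts simulated from summed UMIs, the model that the intervals assume. That check does not cover UMIs gathered in few barcodes. The members and lists were chosen with earlier results of these data known, and the split by replication genes and the contrast of immature with myelinating cells were added after the data were examined. Named with all values are the 10 members of each role with the most UMIs; in contrasts, the 5 highest and 3 lowest, and of other lists the 3 largest ratios. Sums and intervals used pandas 2.3.3, numpy 2.4.6 and scipy 1.17.1 under Python 3.11.15, and plots matplotlib 3.10.9.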

Additional observations from a re-analysis of the deposited data

Results flagged for a closer look

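Mitosis genes were also detected in barcodes outside the comparisons of classes. They are listed because the UMIs were there at all, and no control stands beside them. Barcodes left out by the filters held 62.3, 37.4, 92.6 and 488 CPM of mitosis genes in libraries 1 to 4; a count of 0 would allow 2.49, 0.289, 0.272 and 0.636 CPM. Kept barcodes of no class, which entered only the sums over all kept barcodes, held 232, 146, 602 and 1691 CPM in libraries 1 to 4; a count of 0 would allow 0.609, 0.952, 0.957 and 0.503 CPM. In library 4 the 827 barcodes of no class stood above the 1512 CPM of the glia-like cells.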

How the results depend on the processing

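No paired analysis was possible because each group had 1 library and the result comes from no test. Of the 130 alternative values of the main results, 59 stayed within the counting interval of the reported value, 66 moved out of it and 5 turned direction. The 5 turns are summed mitosis genes, glia-like over fibroblast-like (log2): without the 5 glia-like barcodes richest in mitosis UMIs, -1.53, -0.35 and -0.15 in libraries 1 to 3, and without barcodes of a second class, -0.99 and -0.05 in libraries 1 and 3. The cause was not tested, but the first alternative lowers this sum by construction, as it takes barcodes from the glia-like side alone. In library 4 both kept the direction (0.55 and 0.63). Without barcodes of a second class the ratio of library 2 was 3.60, and the replication ratios were 0.40 and 0.92 in libraries 1 and 2. The glia-like mitosis levels were then 55.6, 198, 816 and 1397 CPM and the replication levels 216, 222, 289 and 348 CPM. Without the 5 richest barcodes the mitosis levels were 37.9, 73.1, 638 and 1475 CPM. At most 10% mitochondrial UMIs, mitosis levels were 354, 277, 1262 and 3128 CPM, replication levels 334, 245 and 507 CPM (libraries 1, 2 and 4), and the mitosis ratio of immature to myelinating cells 1.98. With every cell weighing the same, mitosis levels were 222, 96.1, 728 and 1128 CPM and replication levels 199 and 330.1 CPM (libraries 2 and 4). The mitosis ratios to fibroblast-like cells were then 1.63 and 0.40 (libraries 1 and 4), the replication ratio -0.25 (library 3), and the ratios of immature to myelinating cells 2.48 and 0.57. Replication shares of member UMIs were 21.0%, 36.6%, 13.5% and 14.6% without Pcna, 43.9%, 63.7%, 24.9% and 24.5% without Mki67 and Top2a, and 57.3%, 67.6%, 26.6% and 23.1% after thinning to 1000 UMIs. Shares of glia-like cells with 3 or more mitosis genes were 1.95% and 20.8% unthinned (libraries 2 and 4), and in library 4 12.3% at 2000 UMIs and 12.4% with 2 genes; with 5 genes they were 4.72% and 6.87% (libraries 3 and 4). Replication genes in cells with mitosis genes stood at 1.17, 0.94 and 0.78 with 5 genes (glia-like in library 4, fibroblast-like in libraries 3 and 4), and for fibroblast-like cells of library 3 at 1.79 with 2 genes and 2.19 unthinned. Mitosis genes in cells with replication genes stood at 2.09 with 2 genes and 1.31 with 5 (glia-like), at 3.66, 2.56 and 1.93 with 2 (fibroblast-like, libraries 1, 3 and 4), and at 1.61 and 1.44 with 5 (libraries 3 and 4). The alternatives without the 5 richest barcodes, those of the replication split and those of the immature cells were chosen after seeing the data. Depth limits the shallow barcodes: in library 2, 2163 kept barcodes had under 1000 UMIs and entered no share of cells.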
